A study of Mus musculus with 8 samples.

Results

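The genes described here are 47 genes of Fgf, Bmp and Tgfb signaling, named from the GENCODE M1 annotation of the mouse genome build mm9, out of 22367 protein-coding genes. They comprise 19 Fgf ligands, 4 Fgf receptors, 6 genes grouped as Bmp ligands and Bmp1, 6 Bmp and activin receptors, 3 Tgfb ligands, 2 Tgfb receptors and 7 Smads, and every one was found in the annotation. DNA double-stranded breaks (DSBs) were mapped by DSB-seq in mouse ES cells that lack the chromatin remodeler Chd1 (Chd1Δ/Δ, here Chd1 KO, an established line) and in control ES cells that keep 1 conditional allele next to 1 deleted allele (Chd1fl/Δ). In this assay, terminal transferase adds biotin to the DNA ends in fixed nuclei, and the labeled DNA is captured and sequenced. Both genotypes were grown with serum and LIF, and each was sequenced in 2 replicates. The authors combined the replicates before peak calling, so there is 1 list of peaks per genotype, no value has a replicate error, and no difference between genotypes could be tested. The Chd1 KO list held 5671 peaks and the control list 54.

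Fgf ligands are secreted proteins that dimerize receptor tyrosine kinases and feed into the Ras and MAP kinase cascade, and Fgf4 made by ES cells is known to prime them for differentiation. Bmp, activin and Tgfb ligands assemble type I and type II serine/threonine kinase receptors, which phosphorylate receptor Smads. These pair with Smad4 and enter the nucleus, while Smad6 and Smad7 block the pathway. Bmp signals together with LIF sustain self-renewal of ES cells in serum.

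In Chd1 KO cells, 20 of the 47 genes (42.6%, Wilson 95% interval 29.5% to 56.7%) had the summit of a DSB peak within 1 kb of an annotated transcription start site (TSS), against 15.9% of all protein-coding genes. Any annotated TSS of a gene counted. Of the 11 genes with 1 TSS, 3 had such a summit (27.3%, 9.75% to 56.6%), against 9.51% of all genes with 1 TSS. A summit lay in the gene body, from the annotated start of the gene to its end, for 19 of the 47 (40.4%), against 15.3% of all genes. For 12 of these 19, the body held only summits within 1 kb of a TSS. The other 7 had one farther away, against 4.14% of all genes. Median gene length was 40.3 kb in the 47 genes and 13.2 kb in all genes. Counting TSSs and gene bodies together, 24 genes had a peak in either place, 4 of them in the gene body only, and 23 had none. Over all 22367 protein-coding genes, 4204 had a peak in either place, 644 of them in the gene body only. In control cells, none of the 47 genes had a summit at a TSS or in the body, which allows a share of up to 6.38%. Over all protein-coding genes the control shares were 0% at TSSs and 0.0313% in gene bodies. Intervals and limits for counts of 0 cover counting error only.

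Within the 47 genes, TSS peaks were spread unevenly over the roles, with most counted on signal-receiving and signal-transducing genes. Among the Smads, 6 of 7 had one, as did 3 of 4 Fgf receptors, 3 of 6 Bmp and activin receptors and 1 of 2 Tgfb receptors, together 13 of 19 (68.4%, 46.0% to 84.6%). Among the ligand groups, 4 of 19 Fgf ligands, 2 of 6 Bmp genes and 1 of 3 Tgfb ligands had one, together 7 of 28 (25.0%, 12.7% to 43.4%). The groups also differed in the number of annotated TSSs. Its median was 11 in Fgf receptors, 5 in Smads, and 3 in the Bmp and activin receptors and the Tgfb receptors. In the Fgf ligands and the Bmp genes it was 2, and in the Tgfb ligands 3. How far the contrast follows this number was not tested. These groups were formed with results of these data known, so the contrast is a description. One receptor, Fgfr2, entered through a single transcript that starts at another gene. Without that transcript, the 3 of 4 and the 13 of 19 each lose 1 gene, and 19 of 47 genes had a TSS peak. Outside the 47 genes, 1 of 8 further Bmp and Tgfb receptors with Smad9 had a TSS peak (12.5%), against 15.9% of all genes. Of 25 further Bmp and Tgfb family ligands, 2 had one (8.00%).

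**Figure D1:**
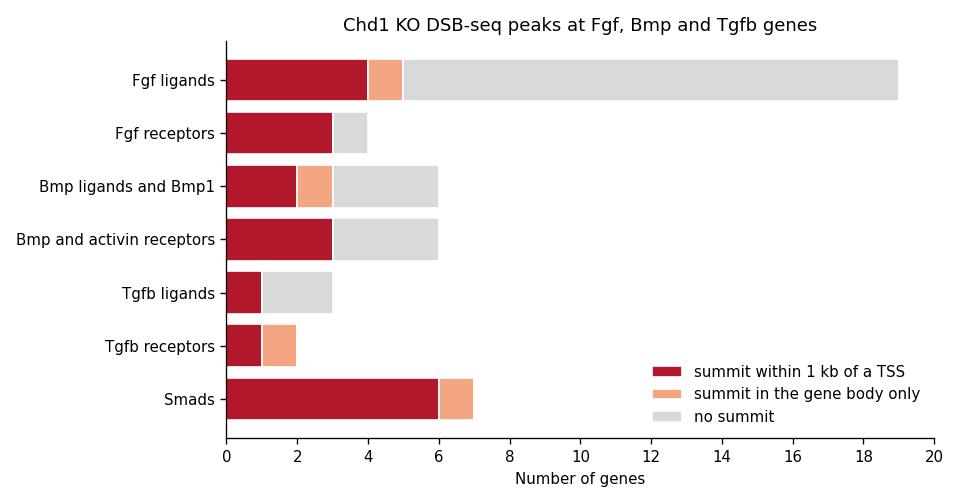
Number of genes in each role with a Chd1 KO peak summit within 1 kb of a TSS (dark red), in the gene body only (light red) or with none (grey). Of 19 Fgf ligands 14 had no summit, whereas all 7 Smads had one, 6 of them at a TSS. Over all 22367 protein-coding genes, 4204 had a summit in either place.

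The strength of each peak is given as the fold enrichment of the authors and as the number of reads, each extended to 200 bp, that overlap the summit. The latter was recovered from the fold enrichment and the p-value and carries an exact Poisson 95% interval. Among the Fgf ligands, Fgf2, the basic fibroblast growth factor, had the highest fold enrichment of all TSS peaks in the 47 genes (6.28, percentile 93.5 of the Chd1 KO list). Its peak (chr3:37247406-37247946) had 27 reads at the summit (17.8 to 39.3) over a local background of 3.46, and the summit lay 3 bp upstream of the nearest TSS, within the 5′ UTR of a transcript that starts farther upstream. Fgf4 had a weaker peak just upstream of its only TSS, with 15 reads (8.40 to 24.7) and a fold enrichment of 3.57. Its summit was 88 bp before the TSS (peak chr7:152047115-152047336). Fgf3 and Fgf15 lie next to Fgf4 on chromosome 7 and had no peak of their own, the nearest summit being at 22.7 kb from a TSS of Fgf3 and 35.2 kb from that of Fgf15.

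Fgf9 and Fgf20, which belong to the same Fgf subfamily, both had a TSS peak. At Fgf9 the summit lay in an intron 515 bp downstream of the TSS (chr14:58689783-58689987), with 18 reads (10.7 to 28.4) and a fold enrichment of 3.42. At Fgf20 it lay in the 5′ UTR 75 bp downstream (chr8:41393245-41393766), with 17 reads (9.90 to 27.2) and a fold enrichment of 4.23. The Fgf20 summit was also within 1 kb of a TSS of the neighboring gene Efha2, so the peak cannot be given to Fgf20 alone. Fgf6, a ligand known from skeletal muscle, had a peak in an intron 4440 bp from its TSS, with 19 reads (11.4 to 29.7) and a fold enrichment of 4.33. The other 14 Fgf ligands had no peak, including Fgf5, Fgf8 and the intracellular factors Fgf11, Fgf12 and Fgf14.

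Of the 4 Fgf receptor tyrosine kinases, 3 counted as having a TSS peak, and Fgfr4 did not. At Fgfr1 the summit lay 231 bp downstream of an internal TSS and 5896 bp from the outermost one (chr8:26629649-26630163), with 24 reads (15.4 to 35.7) and a fold enrichment of 4.58. At Fgfr3 it lay in the 5′ UTR 17 bp upstream of a TSS (chr5:34064872-34065128), with 18 reads (10.7 to 28.4) and a fold enrichment of 3.39. Both summits were nearest to starts within the gene. At Fgfr3 the outermost TSS was also within 1 kb, 657 bp from the summit. Fgfr4 had its nearest summit 42.5 kb from a TSS.

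The Fgfr2 entry rests on 1 of its 29 transcripts. This transcript spans 3009 kb (chr7:137305965-140315033), and 2 of its 7 exons lie within the span of Ctbp2 (chr7:140179246-140316037), a transcriptional co-repressor gene. The summit counted for Fgfr2 was 872 bp downstream of the TSS of that transcript and 137 bp from a TSS of Ctbp2, with 23 reads (14.6 to 34.5). A further 7 summits fell in the introns of the same transcript, and 4 of them were within 1 kb of the TSS of another gene, among these Plekha1, Fam53b and Zranb1. The other transcripts of Fgfr2 cover 104 kb (chr7:137306026-137410322), held no summit, and had the nearest one 65.7 kb from a TSS. At the receptor gene itself no peak was therefore called.

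Of the Bmp genes, Bmp2 and Bmp6 had TSS peaks. Bmp2 had a summit 91 bp upstream of its only TSS (chr2:133377744-133378137), with 17 reads (9.90 to 27.2) and a fold enrichment of 4.13. At Bmp6, which is expressed in many tissues and regulates iron, it lay in the 5′ UTR 119 bp downstream of a TSS (chr13:38437621-38437858), with 16 reads (9.15 to 26.0) and a fold enrichment of 3.53. Bmp1, a metalloproteinase that shares the name but is no ligand of this family, had a peak in a coding exon 11972 bp from its nearest TSS, with 16 reads (9.15 to 26.0) and a fold enrichment of 3.56. Bmp4, the ligand used to keep ES cells undifferentiated, had its nearest summit 397 kb away. Bmp5 and Bmp7 had none either.

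Of the receptors for Bmps and activins, the type I receptor Bmpr1a and the type II receptors Bmpr2 and Acvr2b had TSS peaks. Bmpr1a carried more reads than any other TSS peak of the 47 genes, 32 (21.9 to 45.2), with a fold enrichment of 5.56 (chr14:35315345-35315943). Its summit lay in an intron 202 bp downstream of a TSS and 1015 bp from the outermost TSS, and a TSS of the annotated gene Gm17110 was also within 1 kb. Bmpr2 had a summit 650 bp upstream of its only TSS (chr1:59820493-59820914), the farthest upstream of all, with 24 reads (15.4 to 35.7) and a fold enrichment of 4.79. Acvr2b had 24 reads (15.4 to 35.7) and a fold enrichment of 4.81 at a summit 118 bp upstream (chr9:119311353-119311624). The Poisson intervals of the 3 overlapped. Bmpr1b, Acvr1 and Acvr2a had no peak, with the nearest summits 399 to 712 kb from a TSS.

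For the Tgfb ligands, Tgfb1 alone had peaks, one at each end of the gene. That at the TSS was weak, with 18 reads (10.7 to 28.4) and a fold enrichment of 3.32 at 79 bp downstream, in the 5′ UTR (chr7:26471933-26472143). That in the 3′ UTR had 22 reads (13.8 to 33.3) and a fold enrichment of 4.83 (chr7:26489838-26490163). The 2 Tgfb receptors differed in where the peak lay. Tgfbr1, the type I receptor, had a summit 7 bp upstream of a TSS (chr4:47366134-47366511) with 16 reads (9.15 to 26.0) and a fold enrichment of 3.65. Tgfbr2, the type II receptor, had none at its TSS but an intronic peak 70.8 kb downstream (chr9:116013278-116013714) with 29 reads (19.4 to 41.7) and a fold enrichment of 6.91, at percentile 96.7 of the list.

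All 7 Smads had a peak, and only Smad1 had none at a TSS. Smad4, the common partner, had 24 reads (15.4 to 35.7) and a fold enrichment of 5.21 in an intron 353 bp downstream of the TSS, the highest of the Smad TSS peaks. Smad5, a receptor Smad of the Bmp branch, had 24 reads (15.4 to 35.7) and a fold enrichment of 4.92 at 15 bp downstream (chr13:56804349-56805062), in a peak of 714 bp, the widest of the 47 genes. Smad7, an inhibitory Smad, had 25 reads (16.2 to 36.9) and a fold enrichment of 4.83 at 253 bp downstream, with the TSS of another annotated transcript, RP24-263P17.1, in range. These 3 lay downstream of the TSS.

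The receptor Smads of the activin and Tgfb branch, Smad2 and Smad3, differed in side. Smad2 was the only gene of the 47 with 2 peaks at TSSs, one with 22 reads (13.8 to 33.3) and a fold enrichment of 4.44 at 28 bp downstream and one with 18 reads (10.7 to 28.4) and a fold enrichment of 3.68 at 156 bp downstream of a later TSS. Smad3 had its summit 262 bp upstream (chr9:63605959-63606210), with 20 reads (12.2 to 30.9) and a fold enrichment of 4.45. Smad6, the other inhibitory Smad, had the weakest fold enrichment of all TSS peaks here (3.29, 21 reads, 13 to 32.1) at 149 bp upstream (chr9:63869952-63870151), over the highest background (5.68 reads). The same gene held the strongest peak of all 47 genes in an intron (chr9:63854966-63855303), with 37 reads (26.1 to 51.0) and a fold enrichment of 7.28, at percentile 97.9 of the list. Smad1, the other Bmp receptor Smad here, had 22 reads (13.8 to 33.3) and a fold enrichment of 4.12 in an intron 31.9 kb from its TSS.

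**Figure D2:**
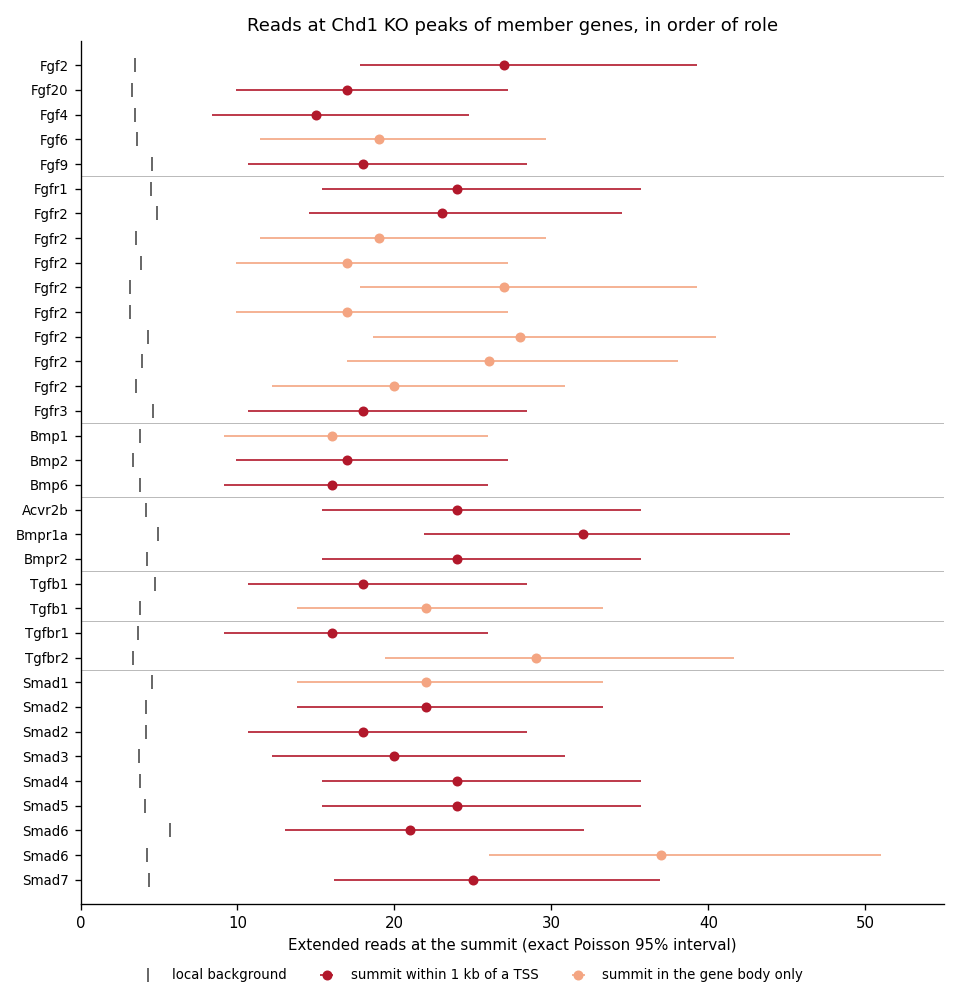
Extended reads at the summit of each of the 34 Chd1 KO peaks of the 47 genes (points, with exact Poisson 95% intervals), in order of role, with the local background of each (grey ticks). Reads ran from 15 at Fgf4 to 37 in the Smad6 intron, most intervals overlapped, and the backgrounds stayed between 3.18 and 5.68.

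The 21 TSS peaks of these genes were modest beside the rest of the list. Their fold enrichment ran from 3.29 to 6.28 with a median of 4.23, against 4.53 for the 3673 Chd1 KO peaks within 1 kb of any TSS. The median number of reads at the summit was 21 in both sets. The control list ended at a stricter p-value (−log10 p of 7.13, and at least 17 reads) than the Chd1 KO list (4.88, and at least 13 reads). Of the 21 peaks, 13 were at or above the p-value of that weakest listed control peak and 8 were below it. No listed control peak was thus as weak as these 8. Whether a control site that weak would have been listed cannot be told from the list. Among all Chd1 KO peaks at TSSs, 88.0% were at or above the weakest listed control peak. Counting only such peaks, 13 of the 47 genes (27.7%) and 14.2% of all genes had a TSS peak. The genes lost were Fgf4, Fgf9, Fgfr3, Bmp6, Tgfb1, Tgfbr1 and Smad6, while 6 of 7 Smads became 5.

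Summits gathered around the start sites on both sides. There were 12 downstream and 9 upstream of the nearest TSS, 9 of the 21 within 100 bp of it, and the median position was 28 bp downstream. By annotation, 9 lay in a 5′ UTR, 6 in an intron and 6 before the gene. For 4 of them (Fgf20, Fgfr2, Bmpr1a and Smad7) another gene's TSS was within 1 kb of the summit, and 16 of 47 genes had a TSS peak without such a neighbor, against 12.4% of all genes. The members closest to the 1 kb limit were Fgfr2 at 872 bp and Bmpr2 at 650 bp inside it, and Fgf6 at 4440 bp outside, so no gene lay just beyond the limit.

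**Figure D3:**
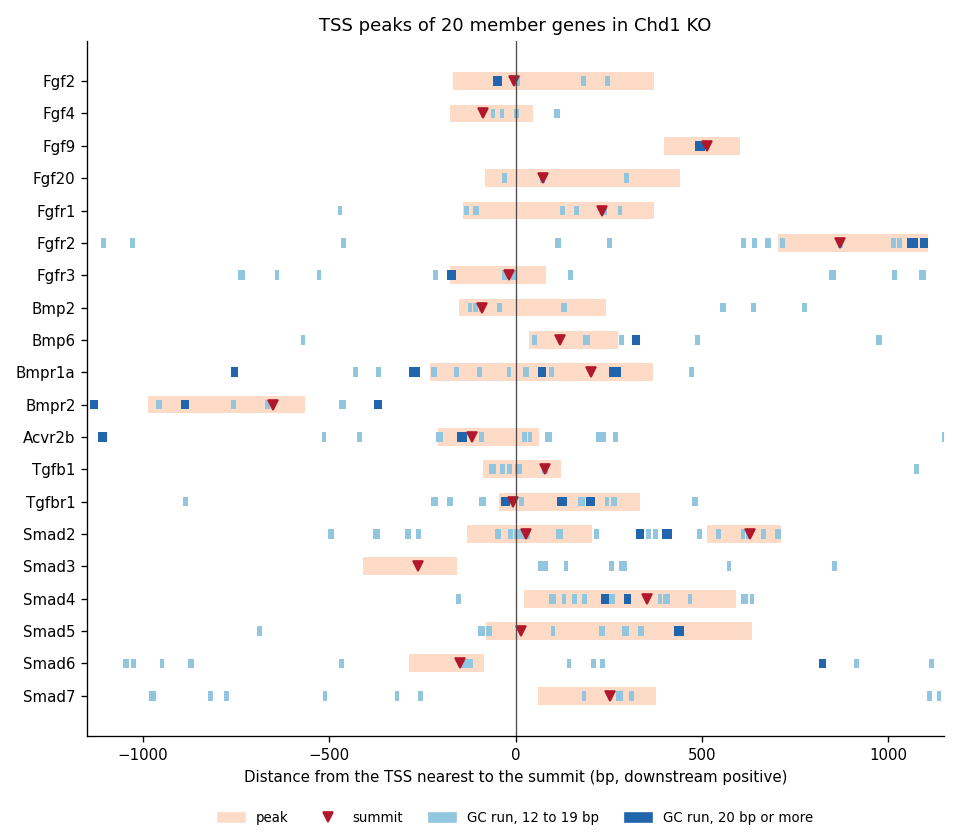
Peaks (pale bars), summits (triangles) and runs of only G and C (blue, dark for 20 bp or more) at the 20 genes with a TSS peak, in bp from the TSS nearest to the strongest summit, downstream positive. Summits scatter from 650 bp upstream (Bmpr2) to 872 bp downstream (Fgfr2, at the start of its 3009 kb transcript), and 20 of the 21 peaks contain a run of at least 12 bp.

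The DNA under these peaks was rich in G and C. GC content of the 21 TSS peaks ran from 66.8% to 82.9% with a median of 76.2%, and their longest stretch free of A and T, called a GC run here, had a median of 19 bp. The run centre was within 100 bp of the summit in 13 of the 21. To show what these runs are made of, the longest run in the TSS peak of 7 genes is printed in capitals with flanking bases in lower case, 5′ to 3′ along the strand of the gene, from mm9. The stretches are Fgf2 at chr3:37247512-37247540 (plus strand), Bmpr1a at chr14:35315411-35315482 (minus), Smad5 at chr13:56804851-56804880 (plus), Bmpr2 at chr1:59820564-59820624 (plus), Fgfr1 at chr8:26629670-26629698 (plus), Fgf20 at chr8:41393374-41393402 (minus) and the Fgfr2 entry, close to the Ctbp2 start, at chr7:140313934-140314001 (minus). Flanks were shortened so that no stretch held more than 30 bases of a UTR, and the stretches of Fgf2, Smad5, Fgfr1 and Fgf20 lie wholly within an annotated UTR. The runs of Smad2, Smad4 and Smad7, whose TSS peaks had a higher fold enrichment than that of Fgf20, are not shown.
Fgf2: ggaGGCGGCGCGCGGGGCGGGGGCGCacg
Bmpr1a: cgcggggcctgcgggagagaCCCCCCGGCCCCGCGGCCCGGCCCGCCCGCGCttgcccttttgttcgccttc
Smad5: tGCGCCCGCCCGCCCGCCCGCCCGCCCGCt
Bmpr2: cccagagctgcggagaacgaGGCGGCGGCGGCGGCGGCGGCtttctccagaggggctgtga
Fgfr1: gagccctCCCCCCCGCCCCGCCtccgggg
Fgf20: cgggagctGCGGGCCGGGCCGagccgagc
Fgfr2: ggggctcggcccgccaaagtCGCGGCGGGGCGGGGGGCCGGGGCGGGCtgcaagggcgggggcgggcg
No single pattern ran through the 7 stretches shown. Bmpr2 carried a GGC repeat, Smad5 a CCCG repeat, and Bmpr1a and Fgfr1 runs dominated by C, while Fgf2 and the Fgfr2 entry had runs dominated by G. At Bmpr1a, 7 CG steps lay within the 32 bp run, and at Bmpr2 6 within 21 bp. The distance between run and summit also varied, from 46 bp at Fgf2 to 424 bp at Smad5.

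For 3 genes with a summit upstream of the gene, the whole peak before the TSS is given instead, with every run of at least 12 bp in capitals. These are Acvr2b at chr9:119311353-119311561 (plus), Bmp2 at chr2:133377744-133377894 (plus) and Smad3 at chr9:63605959-63606210 (minus).
Acvr2b: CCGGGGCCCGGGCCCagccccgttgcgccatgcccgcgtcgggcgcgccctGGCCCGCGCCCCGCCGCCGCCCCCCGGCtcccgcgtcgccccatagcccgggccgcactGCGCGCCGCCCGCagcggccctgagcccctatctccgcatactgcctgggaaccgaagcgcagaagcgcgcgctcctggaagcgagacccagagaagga
Bmp2: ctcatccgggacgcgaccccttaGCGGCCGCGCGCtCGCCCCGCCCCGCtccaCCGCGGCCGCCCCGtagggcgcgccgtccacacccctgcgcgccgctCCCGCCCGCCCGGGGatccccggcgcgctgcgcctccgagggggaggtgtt
Smad3: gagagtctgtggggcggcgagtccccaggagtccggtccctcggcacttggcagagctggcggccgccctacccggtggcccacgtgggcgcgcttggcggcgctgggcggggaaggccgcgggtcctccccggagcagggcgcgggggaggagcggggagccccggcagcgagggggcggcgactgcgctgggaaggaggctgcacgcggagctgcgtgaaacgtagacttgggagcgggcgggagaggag
The Bmp2 stretch of 151 bp held 4 runs and 82.1% GC, and the Acvr2b stretch of 209 bp held 3 runs, the longest 28 bp, and 78.9% GC. Smad3 had 76.2% GC in 252 bp but no run of 12 bp, its longest being 11 bp. It was the only TSS peak of the 21 without one.

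Beyond the TSSs, 13 further summits lay in gene bodies, 7 of them in the long Fgfr2 transcript. The other 6 were spread over Smad6, Tgfbr2, Tgfb1, Fgf6, Smad1 and Bmp1, 4 in introns, 1 in a 3′ UTR and 1 in a coding exon. Leaving Fgfr2 out, this was 1.76 summits per Mb of gene body more than 1 kb from any TSS of the gene (exact Poisson 95% interval 0.646 to 3.83), against 1.13 over all protein-coding genes. With the 1 kb around TSSs taken away, 7 of the 47 genes, Fgfr2 included, had a body summit, against 4.14% of all genes. Without Fgfr2 it was 6 of 46. These shares do not take gene length into account, whose median was 40.3 kb in the 47 genes and 13.2 kb in all genes. The strongest 2 of these 6 sites are shown over 121 bp centred on the summit, Smad6 at chr9:63855086-63855206 (minus) and Tgfbr2 at chr9:116013501-116013621 (minus), with runs of at least 12 bp in capitals. They were picked after their values were seen.
Smad6: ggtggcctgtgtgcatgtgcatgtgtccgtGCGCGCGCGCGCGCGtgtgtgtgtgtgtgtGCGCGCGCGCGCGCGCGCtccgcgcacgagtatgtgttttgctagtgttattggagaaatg
Tgfbr2: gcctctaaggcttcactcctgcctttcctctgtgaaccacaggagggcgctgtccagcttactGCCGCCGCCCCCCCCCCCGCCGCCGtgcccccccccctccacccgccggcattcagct
The Smad6 site consisted of alternating GC and GT dinucleotides with runs of up to 18 bp, and the Tgfbr2 site of a C-rich stretch with a run of 25 bp. Over their whole length these 2 peaks had 54.1% and 53.6% GC, below each of the 21 TSS peaks, while their fold enrichments of 7.28 and 6.91 exceeded all of those. The runs lay close to the summits, with centres 8.50 and 15 bp away. The Tgfb1 peak in the 3′ UTR had a run of 28 bp centred 21.5 bp from its summit and the Smad1 intron peak one of 24 bp that lay across its summit, whereas the Fgf6 and Bmp1 peaks had runs of 9 and 10 bp only.

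Promoter GC content, taken over 1 kb on each side of the outermost TSS, was higher in the genes with a TSS peak. Its median was 62.3% in the 20 genes with a TSS peak and 56.0% in the 27 without. Over all protein-coding genes these medians were 58.7% and 49.9%, and 51.2% without regard to peaks. The 47 genes as a whole stood at 58.0%. By role, the medians were 62.4% for Smads and 56.1% for Fgf ligands.

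Apart from Fgfr1, the share of these genes with a TSS peak rose with GC content, as it did over all genes. None of the 3 genes below 45% GC had one (Fgf7, Fgf14 and Bmp5; 1.21% of all genes in that range). From 50% to 55% GC 2 of 10 had one (10.9%), from 55% to 60% 5 of 15 (29.2%), from 60% to 65% 8 of 13 (55.1%), and at 65% or more 4 of 5 (75.7%). Between 45% and 50% there was only Fgfr1, which had a TSS peak where 3.96% of all genes did. The value for Fgfr1 belongs to its outermost TSS (47.5%), and at the internal TSS next to the summit it was 63.9%. Fgfr2 is among the 4 at 65% or more through the start of its long transcript (68.6%). Its other transcripts had 53.1% and no peak. Summing the share of all genes in each member's range gives 16.5 genes, beside the 20 counted. For the 28 ligand genes this sum was 7.88 beside 7 counted, and for the 19 receptor and Smad genes, Fgfr2 included, 8.60 beside 13. The same sums by range of the longest GC run were 15.2 for all 47 genes, 6.57 for the ligand genes and 8.65 for the receptor and Smad genes. No test was made of these differences.

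**Figure D4:**
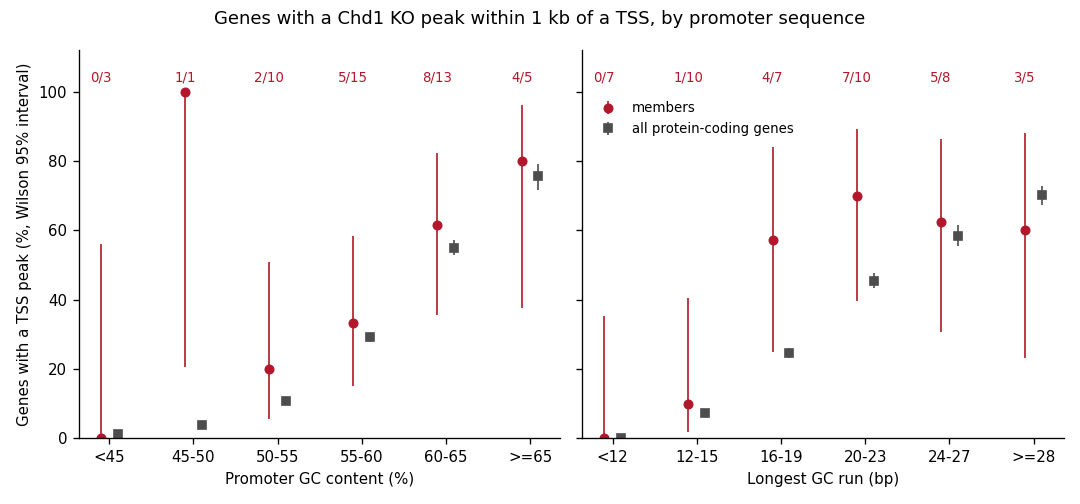
Share of genes with a Chd1 KO summit within 1 kb of a TSS by promoter GC content (left) and by longest GC run (right), for the 47 genes (red, with counts above) and for all protein-coding genes (grey). Bars are Wilson 95% intervals. Shares rise with GC content from 1.21% to 75.7% over all genes and, apart from the single gene between 45% and 50%, in the 47 genes, whose intervals are wide. By run length the shares climb to 70.3% over all genes, but in the 47 genes they are highest at 20 to 23 bp (7 of 10) and 3 of 5 at 28 bp or more.

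Most of the genes with a TSS peak also had a long GC run within 1 kb of a TSS, though not always under the peak. The longest run within 1 kb of any TSS had a median of 22.5 bp with a TSS peak and 14 bp without, against 22 and 11 bp over all genes. A run of at least 20 bp was present in 15 of the 20 and in 8 of the 27, and in 18.6% of all genes. Within the 21 TSS peaks themselves, 9 held such a run. More TSSs give more sequence to search, and their median number was 4.5 with a TSS peak and 2 without. Among all genes with a TSS peak, a run of at least 20 bp within 1 kb of a TSS was present in 64.2%. None of the 7 genes whose longest run was under 12 bp had a TSS peak (0.21% of all genes in that range). From 12 to 15 bp 1 of 10 had one (7.38% of all genes), from 16 to 19 bp 4 of 7 (24.6%), from 20 to 23 bp 7 of 10 (45.4%), from 24 to 27 bp 5 of 8 (58.5%) and at 28 bp or more 3 of 5 (70.3%). Above 23 bp the share in the 47 genes was no higher, with 5 to 8 genes in each range, while that of all genes was. A motif of 4 tracts of at least 3 G separated by 1 to 7 bases, searched on both strands, was found in 46 of the 47 genes (62.4% of all genes) and so did not separate them. The sequence CGCGCGCG, which reads the same on both strands, was found in 10 of the 20 genes with a TSS peak, in 7 of the 27 without, in 27.8% of all genes with a TSS peak, and in 10.4% of all genes. Matches to these motifs are descriptions of the sequence, and they overlap the GC runs.

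**Figure D5:**
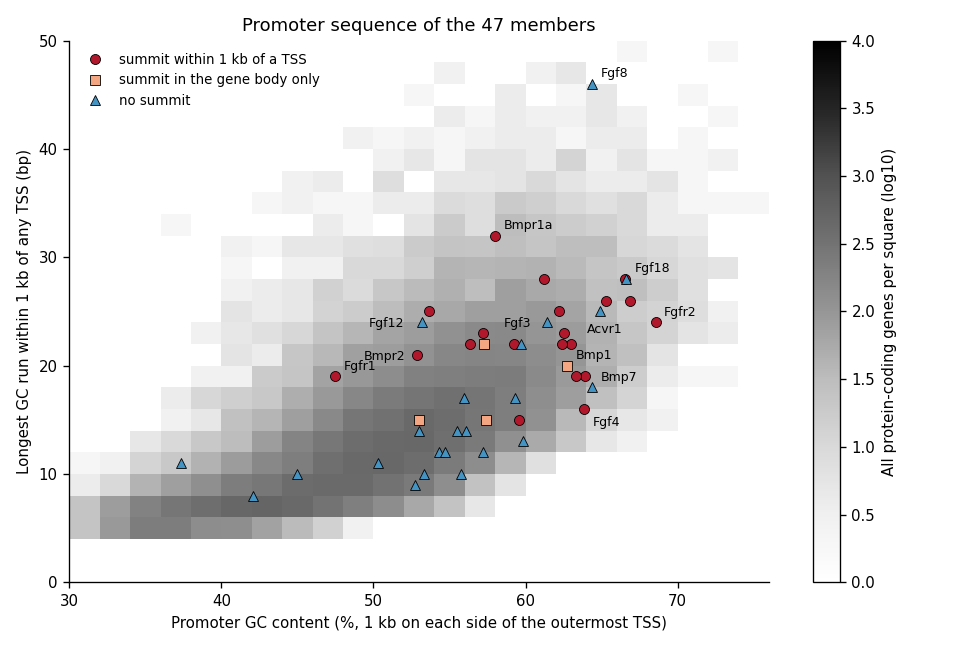
Promoter GC content and longest GC run of the 47 genes, marked by where their Chd1 KO summits lay, over the number of all protein-coding genes in squares of 2 percentage points by 2 bp (grey, log10). Genes with a TSS peak lie mostly at the upper right, and Fgf8 (46 bp, 64.4%) and Fgf18 (28 bp, 66.6%) lie there without a peak.

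Several genes had such promoters and yet no TSS peak. The 6 with the highest GC content were Fgf18 (66.6%), Acvr1 (64.9%), Fgf8 and Bmp7 (both 64.4%), Bmp1 (62.7%) and Fgf3 (61.4%). Fgf8, a morphogen of the gastrulating embryo and midbrain, had the longest run of all 47 genes, 46 bp, and its nearest summit was 269 kb away. Fgf18 had a run of 28 bp and its nearest summit 206 kb away. Acvr1, a type I receptor for Bmps and activins, had 25 bp and 399 kb. Sites that missed the q-value cutoff are not in the list, so weaker signal at these promoters was not detectable here. The fewest reads at a listed Chd1 KO summit were 13, but this is no fixed limit, because the local background also counts. The longest runs of 4 genes without a TSS peak are printed as above for comparison, Fgf8 at chr19:45817525-45817610 (minus), Fgf18 at chr11:33047350-33047379 (minus), Acvr1 at chr2:58419564-58419628 (minus) and Fgf12 at chr16:28398949-28399012 (minus).
Fgf8: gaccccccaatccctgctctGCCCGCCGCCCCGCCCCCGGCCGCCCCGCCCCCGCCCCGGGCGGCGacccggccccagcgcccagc
Fgf18: aGCGGCGGCGGCGGCGGCGGCGGCGGCGGa
Acvr1: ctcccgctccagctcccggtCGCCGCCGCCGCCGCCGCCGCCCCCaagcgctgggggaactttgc
Fgf12: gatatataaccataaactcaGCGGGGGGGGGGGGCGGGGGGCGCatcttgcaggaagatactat
These resembled the runs under peaks in their makeup. Fgf18 had a GGC repeat as at Bmpr2, with 9 CG steps, and Fgf8 a C-rich run with 10 CG steps, while the Fgf12 run of 24 bp was mostly G with 3 CG steps.

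Genes with a TSS peak were longer by median, by an amount that depended on where Fgfr2 was placed. Gene length, averaged over the coding transcripts of a gene, had a median of 44.2 kb with and 31.4 kb without a TSS peak, against 33.1 and 10.9 kb over all genes. With Fgfr2 left out of the comparison, they were 40.3 and 31.4 kb. With only its long transcript left out, Fgfr2 moved to the genes without a TSS peak, and the medians were 40.3 and 37.0 kb. The longest of the 47 genes by this measure, Fgf14 (457 kb), had no peak, and neither had the shortest, Fgf21 (1.58 kb), which encodes a liver hormone. Under 5 kb, 1 of 4 genes had a TSS peak (5.66% of all genes of that length), and from 5 to 10 kb 0 of 6 (9.79%). From 10 to 30 kb it was 5 of 9 (15.6%), and from 30 to 100 kb 11 of 21 (29.1%). At 100 kb or more it was 3 of 7 (30.3%), Fgfr2 included. These differences were not tested. Fgf4 was the shortest gene with a TSS peak (3.86 kb).

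In total, the other genes of these pathways stood closer to the share of all genes, but below it within each range of GC content. Of 73 further ligands, receptors, inhibitors and targets in 5 lists, 15 (20.5%, 12.9% to 31.2%) had a Chd1 KO summit within 1 kb of a TSS, beside 15.9% of all genes, and none had a control summit. By list, these were 2 of 6 other Fgf ligands and receptors, 4 of 12 feedback and target genes of Fgf, 2 of 25 other Bmp and Tgfb family ligands, 1 of 8 other receptors with Smad9, and 6 of 22 inhibitors and targets of Bmp and Tgfb. The strongest were at Smurf2, a ubiquitin ligase that degrades Smads and their receptors (fold enrichment 6.23, 35 reads, 24.4 to 48.7), and Frs2, the docking protein of Fgf receptors (5.48, 24 reads, 15.4 to 35.7). Nbl1, a secreted Bmp antagonist, followed with 5.30 (27 reads, 17.8 to 39.3), Smurf1 with 5.06 (25 reads, 16.2 to 36.9) and Inhbb, an activin subunit, with 4.83 (30 reads, 20.2 to 42.8). Fstl3, Skil, Twsg1, Gdf11 and Spry1 had fold enrichments between 4.34 and 4.64. All 15 had a GC run of at least 20 bp within 1 kb of a TSS. Their median promoter GC was 62.5%, close to the 62.3% of the 20 genes above. The median over all 73 was 58.4%. Below 45% GC 0 of 3 had a TSS peak (1.21% of all genes), and from 45% to 50% 0 of 7 (3.96%). From 50% to 55% it was 0 of 13 (10.9%), and from 55% to 60% 5 of 26 (29.2%). From 60% to 65% it was 6 of 18 (55.1%), and at 65% or more 4 of 6 (75.7%). By longest GC run the shares were also lower up to 27 bp, but 6 of 7 at 28 bp or more (70.3%). These differences were not tested.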

How the data were processed

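DSB-seq peaks of mouse ES cells were analyzed, with 1 list for Chd1 KO and 1 for control cells. The authors mapped reads to mm9 with Bowtie2, removed those with mapping quality under 13, retained 1 read at any position, pooled both replicates, ran MACS2 (reads extended to 200 bp, q-value cutoff 0.05) and removed blacklisted regions. The deposited values are the peak positions, the fold enrichment (a ratio of reads at the summit over local background, each plus 1), −log10 p-value and −log10 q-value at the summit, and a display score that was not used. No input, total read count or replicate value was in these lists, and the ratio is relative to each library itself.

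Summits were compared with GENCODE M1 TSSs and gene spans of mm9, and with protein-coding genes on chromosomes 1 to 19, X and Y. Where a symbol had 2 annotated entries (Fgfr1), the longer was used. The reads behind a summit were solved for from its fold enrichment and p-value, a step tested on simulated data. Python 3.11.15, NumPy 2.4.6, SciPy 1.17.1, pandas 2.3.3, pysam 0.24.0, samtools 1.23.1 and Matplotlib 3.10.9 were used. With 1 list per genotype no test between genotypes was made. Members and gene lists were chosen with earlier results of these data known. Every member with a summit, the 6 without a TSS peak of highest GC content, the longest and shortest gene and those nearest to the 1 kb limit are named, and of 73 other genes the 10 TSS peaks of highest fold enrichment. Chd1 and RNA Pol II ChIP-seq were not analyzed here.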

Additional observations from a re-analysis of the deposited data

How the results depend on the processing

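Alternatives changed the q-value cutoff, the TSS window, summit against midpoint, the set of transcripts, and the definitions of gene body, GC content, run and length, 24 in all, of which 6 were chosen after seeing the data. The count of 20 genes with a TSS peak ranged from 13 to 20. It was 13 with only peaks at least as significant as the weakest control peak, 14 with a window from 1 kb upstream to 100 bp downstream, 16 without summits near another gene's TSS, and 19 without the long transcript of Fgfr2. The count with a summit in the gene body, 19, was 7 without the 1 kb around TSSs. The difference in median gene length, 12.8 kb, was 3.33 kb without the long Fgfr2 transcript, which puts Fgfr2 among the genes without a TSS peak. The other 21 alternatives moved no value by over 1.5 times, and the control count stayed at 0 within 10 kb of the genes. No paired analysis was possible because both replicates of a genotype had been pooled ahead of peak calling, and for the same reason no replicate could be left out. The lists were cut at a q-value, not at a number of reads, and weaker sites are not in them. The fewest reads at a listed summit were 13 in Chd1 KO and 17 in control.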
